A study of Mus musculus with 8 samples.

Results

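The genes described here, Hsdl2 aside, encode enzymes and carriers that make fatty acids, build ceramides and turn these into barrier lipids of stratified epithelium. Hsdl2 encodes a peroxisomal protein whose role in these pathways is unsettled. The genes were taken by gene symbol from a fixed list, and all 39 were found among the 22911 genes of the deposited table. RNA came from sorted epithelial cells of the cheek lining (buccal epithelium). The mice were untreated wild-type adults of C57BL/6, a widely used inbred strain. The germ-free (GF) group, which carries no microorganisms, held 4 mice (GF 1 to GF 4), and the specific pathogen-free (SPF) group, which carries a resident microbiota, held 4 mice (SPF 1, 3, 4 and 5). Epithelium was freed from the oral mucosa with dispase II before the sort, each mouse gave 1 library, and the comparison asks how the oral epithelium differs without resident microbes. The sources used here give neither the markers of the sort nor the hour of tissue collection, so an effect of microbial status and one of hour cannot be told apart.

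Fatty acid synthesis starts in the cytosol, where ATP-citrate lyase (Acly) makes acetyl-CoA, acetyl-CoA carboxylase (Acaca, Acacb) makes malonyl-CoA and fatty acid synthase (Fasn) builds palmitate, which elongases and desaturases then modify. Ceramides are made by serine palmitoyltransferase (Sptlc genes), a reductase (Kdsr), ceramide synthases (Cers genes), which attach acyl chains of different preferred lengths, and a desaturase (Degs1, Degs2). In the epidermis, where the pathway is best known, CERS3 and ELOVL4 supply ultra-long-chain ceramides, PNPLA1 with ABHD5 attaches linoleate to them, ABCA12 loads lipids into lamellar bodies, and the lipoxygenases ALOX12B and ALOXE3 oxidise the linoleate. Inherited loss of several of these proteins causes ichthyosis.

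In germ-free epithelium 6 of the 39 genes were lower and none was higher. Those that fell were Acaca of fatty acid synthesis, Fabp5 and Acsl5 of fatty acid binding and activation, Cers3 of ceramide synthesis, Pnpla1 of acylceramide formation, and Hsdl2, which encodes a peroxisomal dehydrogenase-like protein with a sterol carrier domain. The falls were 1.42-fold for Acaca, 1.48-fold for Fabp5, 1.53-fold for Acsl5, 1.86-fold for Cers3, 1.93-fold for Hsdl2 and 3.00-fold for Pnpla1. Over the list the values lay on both sides of 0. Of 37 members tested, 19 had a negative log2 fold change (51.4%, against 47.1% of all genes tested), and the median over the members was −0.002, against 0.021 for all genes tested. Counts were tested with edgeR's quasi-likelihood test over the 15098 genes that passed a filter on low counts, and a gene was called at a Benjamini-Hochberg adjusted p under 0.05. Of the 37 members that passed, 16.2% were called lower, against a background of 2.33% of all genes tested, and 0 were called higher, against 1.85% (631 genes, 4.18%, were called in either direction). DESeq2 called 7 members lower, against 4.30% of its genes, and 0 higher, against 4.06%, and limma voom called 5 lower, against 3.61%, and 0 higher, against 2.85%. The members and their sub-lists were chosen with earlier results of these data known, so these shares are descriptions. At an unadjusted p under 0.05 there were 8 lower and 2 higher members, together 27.0%, against 19.5% of all genes. Every GF library lay below every SPF library for 6 members (16.2%, background 6.84%), and above for 1 member (2.70%, background 6.24%). With 1 library left out, 2 to 5 members were called lower (2 without GF 4, 3 without SPF 4 or GF 2). Elovl3 and Degs2 did not pass the filter and are described by their counts below.

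The counts summed to between 10430507 and 15524731 in GF libraries and between 10260264 and 14730960 in SPF libraries, and levels below are CPM, counts divided by the TMM-scaled library size. The basal keratinocyte markers (7 genes) summed to between 27886 and 30403 CPM in GF and between 29788 and 31749 CPM in SPF libraries, and 0 of the 7 were called. Most of that sum came from the keratin genes Krt5 and Krt14. The markers moved in both directions: Krt5, Krt14, Krt15 and Trp63 had log2 fold changes of −0.07, −0.27, −0.40 and −0.20. Itga6, Itgb4 and Col17a1 had 0.29, 0.25 and 0.25. Some libraries stood apart. The 10 fibroblast markers summed to 687 CPM in GF 3, against 73.1 to 98.1 CPM in the other GF libraries and 44.5 to 72.8 CPM in SPF libraries. The skin-type keratin gene Krt1 was at 1480.5 CPM in GF 3 and 15.6 to 269 CPM in the other GF libraries, and at 2465 CPM in SPF 5 and 39.4 to 189 CPM in the other SPF libraries. The 5 salivary acinar markers in the table summed to 232 CPM in GF 4. Results are therefore also given without GF 3 and SPF 5, an alternative chosen after these values were seen: 2 members, Cers3 and Hsdl2, were then called lower and 0 higher. With a fibroblast marker score as a covariate 1 member, Hsdl2, was called lower. The score was 1.67, 3.15, 5.96 and 2.97 in GF 1 to 4, and 0.19, 0.52, 2.33 and 0.09 in SPF 1, 3, 4 and 5. Score and group thus overlap in part and cannot be fully told apart. The SEs of the called members rose, with log2 fold changes of −0.41 ± 0.15 (Acaca), −0.61 ± 0.21 (Fabp5), −0.50 ± 0.18 (Acsl5), −0.86 ± 0.20 (Cers3), −1.93 ± 0.65 (Pnpla1) and −0.83 ± 0.14 (Hsdl2). In bulk libraries, fewer cells of a type and less RNA per cell cannot be told apart.

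The windows before the transcription starts of Cers3 and Hsdl2 are shown because these were the members whose calls held with any 1 library left out. RefSeq promoter sequences of GRCm38.p6 were found for 33 of the 39 members, and the 250 bases before the start were searched on both strands for an E-box (CACGTG), the CCAAT box, a GC box (GGGCGG), an AP-1 site (TGA and TCA around any base), a sterol response element (TCACNCCAC) and a D-box (TTANGTAA). Capitals mark matches.
Cers3, chr7:66743254-66743503, plus strand: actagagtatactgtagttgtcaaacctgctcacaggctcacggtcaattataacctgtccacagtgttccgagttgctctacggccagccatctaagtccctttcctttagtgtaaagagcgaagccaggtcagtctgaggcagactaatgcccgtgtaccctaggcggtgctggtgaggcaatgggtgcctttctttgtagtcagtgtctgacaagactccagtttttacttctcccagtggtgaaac
Hsdl2, chr4:59581313-59581562, plus strand: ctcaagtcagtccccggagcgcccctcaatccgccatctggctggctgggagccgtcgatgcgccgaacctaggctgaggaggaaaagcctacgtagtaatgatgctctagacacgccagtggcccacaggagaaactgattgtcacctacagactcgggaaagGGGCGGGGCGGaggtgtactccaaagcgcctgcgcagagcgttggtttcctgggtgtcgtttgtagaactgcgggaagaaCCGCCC
The Cers3 window held none of the 6 motifs. The Hsdl2 window held 3 GC boxes, starting 86, 81 and 6 bases before the start, of which the first and second overlap by a base. GC boxes stood in 21 of the 33 member windows (63.6%), against 32.9% of 27018 windows of this length over all genes. Shares among only the genes that passed the count filter were not computed. E-boxes stood in 4 member windows (12.1%, against 6.05% over all genes), those of Cers2, Cers6, Degs1 and Elovl5, none of which was called. CCAAT boxes stood in 12 (36.4%, against 34.5%), including those of Acsl5 and Pnpla1. The AP-1, sterol response and D-box letters were in 0 of the 33 windows, against 6.87%, 1.04% and 2.11% of all windows. A match in these letters is a description and not a bound site.

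**Figure D1:**
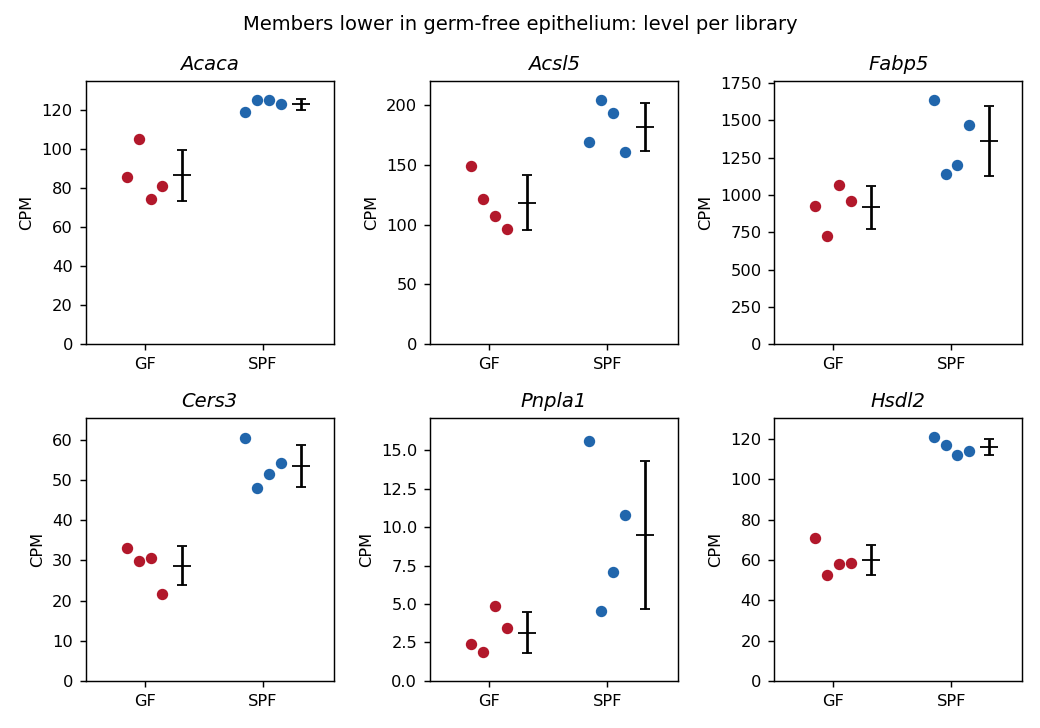
Level of the 6 members called lower, in CPM on a linear axis from 0, in GF libraries (red) and SPF libraries (blue). Points are libraries, and the bar beside each group is the mean ± SD (n = 4). The groups are apart for each gene except Pnpla1, where GF 3 at 4.86 CPM lies above SPF 3 at 4.52 CPM.

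In de novo fatty acid synthesis the carboxylase gene Acaca fell, while the synthase gene Fasn had slightly higher values in germ-free mice. Acaca (ENSMUSG00000020532, GRCm38 chromosome 11, 84129672 to 84401651, plus strand) was at 85.5, 105, 74.5 and 81.1 CPM in GF 1 to 4, and at 119, 125, 125 and 123 CPM in SPF 1, 3, 4 and 5. All 4 GF libraries lay below all SPF libraries, which spanned only a few CPM. The log2 fold change was −0.51 ± 0.10 (SE; edgeR adjusted p = 0.014), and the call was lost without SPF 3 or GF 4 (adjusted p up to 0.0517). Fasn was at 232, 254, 249.6 and 247 CPM in GF 1 to 4, against 219, 228, 193 and 208 CPM in SPF libraries. The groups did not overlap, with a log2 fold change of 0.21 ± 0.08, but the gene was not called (edgeR adjusted p = 0.156). Acly, which supplies acetyl-CoA, averaged 117 ± 18.7 CPM in GF and 127 ± 8.36 CPM in SPF libraries (SD, n = 4 each), with overlapping groups. Acacb, the mitochondrial-membrane carboxylase whose product restrains fatty acid oxidation, stood at 6.35 ± 2.52 and 5.83 ± 0.627 CPM in GF and SPF libraries. Acaca made up 88.7 ± 3.21% of the length-scaled carboxylase level in GF and 92.3 ± 0.746% in SPF libraries.

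No desaturase gene was called. Scd2, the main stearoyl-CoA desaturase gene here, was at 164, 131, 164 and 140.1 CPM in GF libraries, against 169.7, 159, 142 and 186 CPM in SPF libraries, and the groups overlapped (log2 fold change −0.13 ± 0.10). Scd1, which catalyses the same step, was at 12.9, 3.89, 20.5 and 8.64 CPM in GF 1 to 4, and at 8.75, 11.6, 13.8 and 54.9 CPM in SPF 1, 3, 4 and 5. The SPF mean was set by SPF 5: the log2 fold change was −0.96 ± 0.77 with it and 0.01 without it. The genes of the polyunsaturated fatty acid desaturases were at 45.4 ± 5.66 and 41.0 ± 10.6 CPM (Fads1), and at 62.6 ± 7.88 and 61.4 ± 20.7 CPM (Fads2), in GF and SPF libraries. For Fads2 the log2 difference had a 95% interval of −0.37 to 0.44 (1.96 SE either side). All 95% intervals here use this normal approximation, which is narrower than the edgeR test implies. That of Acsl1, 0.01 to 0.43, left out 0 at an unadjusted edgeR p of 0.0623.

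The elongases were not called either. Elovl4, which makes the ultra-long acyl chains of barrier ceramides, was at 5.22, 5.48, 13.0 and 5.20 CPM in GF 1 to 4, against 10.5, 11.6, 8.09 and 20.0 CPM in SPF 1, 3, 4 and 5. GF 1, GF 2 and GF 4 lay below every SPF library, and GF 3 lay among them (log2 fold change −0.79 ± 0.36, edgeR adjusted p = 0.257; −1.24 without GF 3, adjusted p = 0.0523, and −0.47 without SPF 5, adjusted p = 0.532). Elovl6, which extends palmitate, was at 36.6, 38.2, 44.4 and 42.4 CPM in GF and 41.6, 43.8, 48.1 and 56.9 CPM in SPF libraries, with groups that overlapped. Elovl1, Elovl5 and Elovl7 had log2 fold changes of 0.18, 0.10 and −0.20, with 95% intervals that included 0. Elovl3, an elongase of sebaceous glands and brown fat, was near 0: it reached at most 0.192 CPM in GF and 0.764 CPM in SPF libraries, where 3 counts correspond to 0.192 to 0.279 CPM in GF and 0.205 to 0.305 CPM in SPF libraries.

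Fatty acid binding and activation held 2 of the 6 falls. Fabp5, the fatty acid-binding protein of keratinocytes (ENSMUSG00000027533, chromosome 3, 10012548 to 10016607, plus strand), was at 923, 724, 1069 and 959.7 CPM in GF 1 to 4, and at 1634, 1138, 1202 and 1472 CPM in SPF libraries. The groups did not overlap, although GF 3 and SPF 3 lay close together. Its log2 fold change was −0.57 ± 0.14 (edgeR adjusted p = 0.0359), and the call was lost without SPF 1, SPF 4, SPF 5, GF 1, GF 2 or GF 4 (adjusted p up to 0.0975) and by limma voom (adjusted p = 0.0626). Fabp5 was the most abundant member per kilobase of exon, at 258 CPM per kb in GF and 382 CPM per kb in SPF libraries, and the annotated pseudogene Fabp5l2 could share its reads. Acsl5, an acyl-CoA synthetase of mitochondria and endoplasmic reticulum (ENSMUSG00000024981, chromosome 19, 55251938 to 55297720, plus strand), was at 149, 121, 107 and 96.6 CPM in GF 1 to 4, and at 169, 204, 193 and 161 CPM in SPF libraries. All GF libraries lay below all SPF libraries (log2 fold change −0.62 ± 0.13, edgeR adjusted p = 0.0202), and the call was lost without SPF 3, SPF 4, GF 2, GF 3 or GF 4 (adjusted p up to 0.0651). Its exons share 404 bases with Zdhhc6 on the opposite strand, and Zdhhc6 stood at 40.4 ± 5.89 CPM in GF and 40.1 ± 0.943 CPM in SPF libraries.

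The other acyl-CoA synthetase genes were not called. Acsl3, a synthetase of lipid droplets and endoplasmic reticulum, averaged 39.1 ± 5.78 CPM in GF and 28.4 ± 7.37 CPM in SPF libraries, and Acsl1 averaged 90.1 ± 4.64 and 77.5 ± 12.2 CPM, neither of them called (edgeR adjusted p = 0.161 and 0.284). Acsl3 shares 244 exonic bases with Utp14b on the same strand, which had a log2 fold change of 0.48. Acsl4, which prefers arachidonate, and Slc27a4, the fatty acid transporter gene of the epidermis, had log2 fold changes of −0.04 and 0.01 with 95% intervals of −0.33 to 0.25 and −0.28 to 0.30. Within the family, Acsl5 made up 48.9 ± 5.27% of the length-scaled level in GF and 63.2 ± 2.45% in SPF libraries, and Acsl3 made up 18.4 ± 4.13% and 10.9 ± 2.15%.

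**Figure D2:**
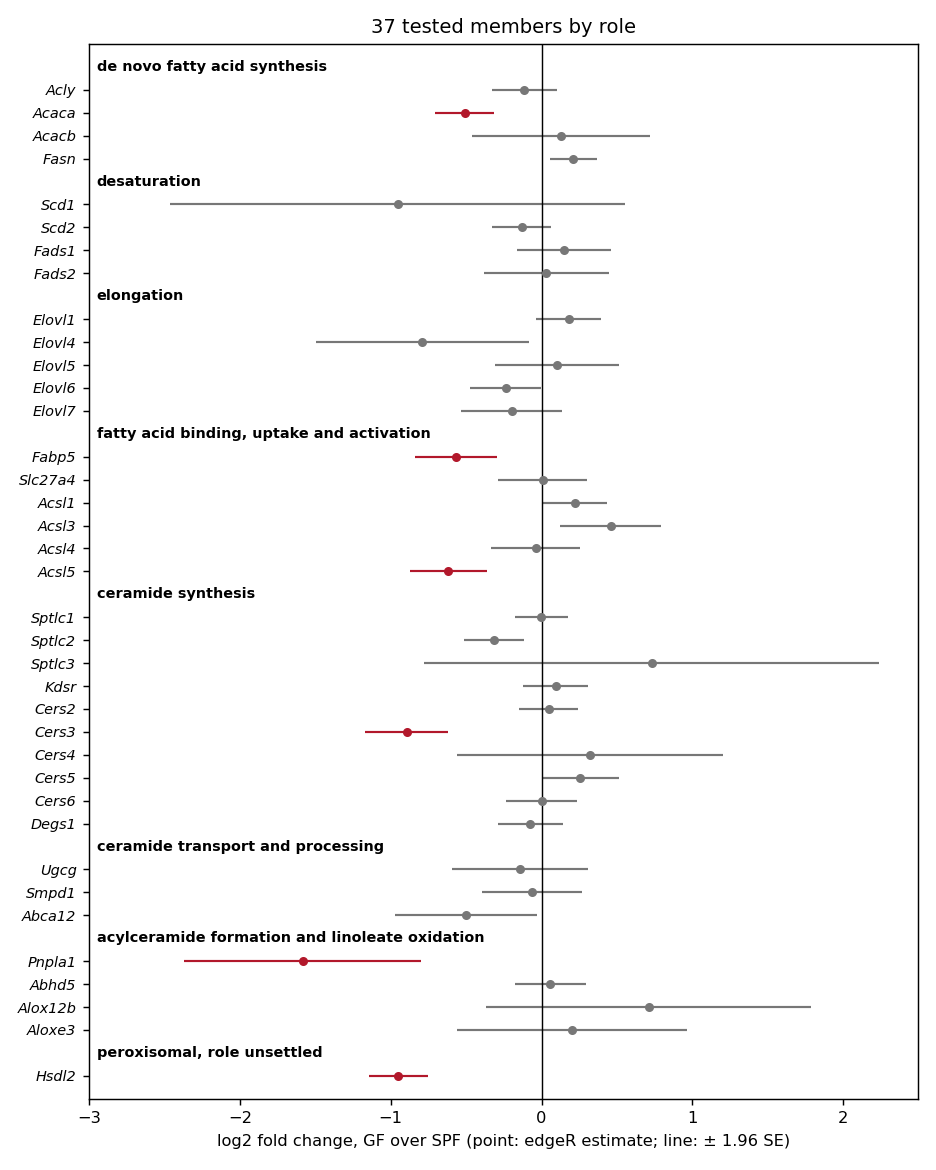
Log2 fold change (GF over SPF) of the 37 tested members by role. Points are edgeR estimates, lines are ± 1.96 SE, and red marks the 6 members called lower. Values lie on both sides of 0 in most roles, from −1.59 for Pnpla1 to 0.73 for Sptlc3, whose estimate was 0.04 without GF 3 and 2.25 without SPF 5.

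Among the 11 genes of ceramide synthesis Cers3 fell, and no other ceramide synthase gene was called. Cers3 (ENSMUSG00000030510, chromosome 7, 66743504 to 66823691, plus strand) was at 33.0, 29.8, 30.6 and 21.6 CPM in GF 1 to 4, and at 60.5, 48.0, 51.5 and 54.3 CPM in SPF 1, 3, 4 and 5. The highest GF library lay well below the lowest SPF library. The log2 fold change was −0.89 ± 0.14 (edgeR adjusted p = 0.00322), between −0.98 and −0.78 with any 1 library left out (adjusted p 0.00413 to 0.0113). It was −0.92 without GF 3 and SPF 5 (edgeR adjusted p = 0.0222). With the fibroblast score as covariate it was −0.86 ± 0.20, and the call was lost (edgeR adjusted p = 0.117). Cers2, which makes very-long-chain ceramides, stood at 37.2 ± 2.16 CPM in GF and 36.0 ± 1.63 CPM in SPF libraries, and Cers6, which prefers palmitoyl-CoA, at 57.6 ± 6.09 and 57.5 ± 8.51 CPM. Cers5 averaged 26.8 ± 1.89 and 22.5 ± 2.04 CPM in GF and SPF libraries with overlapping groups. Cers4 averaged 23.4 ± 7.73 and 18.7 ± 9.27 CPM. As shares of the length-scaled ceramide synthase level, Cers3 made up 27.3, 25.5, 26.7 and 21.1% in GF 1 to 4, and 44.2, 38.8, 37.6 and 41.4% in SPF libraries. Cers3 was thus the largest share in every SPF library, whereas Cers2, at 27.0 to 32.3%, was the largest in every GF library. The margin was small in GF 3, with 27.0% for Cers2 and 26.7% for Cers3. This ranking depends on the length scaling, since in CPM Cers6 had the highest mean of the family in both groups. Cers5 held 21.7 ± 1.52% of the length-scaled level in GF and 15.6 ± 1.01% in SPF libraries.

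**Figure D3:**
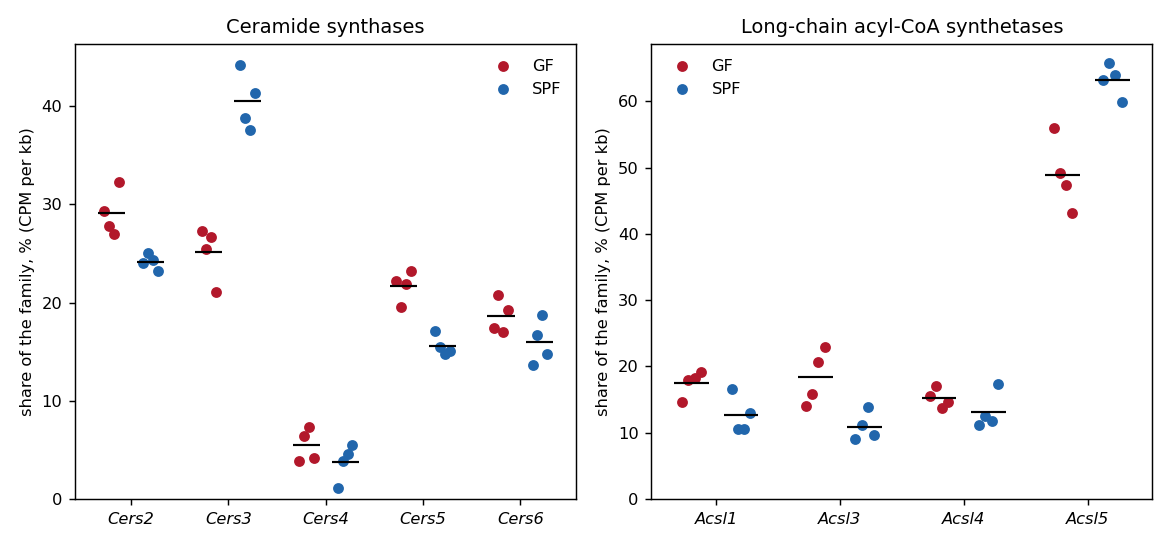
Share of each gene in the summed level of its family, in % of CPM per kb of exon, for the ceramide synthases (left) and the long-chain acyl-CoA synthetases (right). Points are libraries (GF red, SPF blue, n = 4 each) and lines are means. The Cers3 and Acsl5 shares are lower in all 4 GF libraries than in any SPF library.

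Among the genes of the first step of ceramide synthesis, only Sptlc2 came close to the threshold. Sptlc2, a catalytic chain of serine palmitoyltransferase, was at 65.7, 56.2, 59.8 and 64.5 CPM in GF libraries, against 68.3, 76.7, 80.9 and 79.9 CPM in SPF libraries. The groups did not overlap, and the log2 fold change of −0.31 ± 0.10 was not called by edgeR (adjusted p = 0.0809) but was called by DESeq2 (adjusted p = 0.0327) and limma voom (adjusted p = 0.0386). Its partner chain Sptlc1 stood at 55.1 CPM in both groups, with SDs of 0.417 in GF and 3.87 in SPF libraries. Sptlc3, an alternative catalytic chain, was at 1.32, 1.52, 4.67 and 1.21 CPM in GF 1 to 4, against 0.407, 0.411, 0.535 and 3.86 CPM in SPF 1, 3, 4 and 5. GF 3 and SPF 5 were the highest of their groups, and the groups overlapped. Its log2 fold change of 0.73 ± 0.77 lay between 0.04 and 2.25 with 1 library left out (0.04 without GF 3, 2.25 without SPF 5) and was −0.14 with the fibroblast score as covariate. Kdsr and the dihydroceramide desaturase gene Degs1 had log2 fold changes of 0.09 and −0.07, with 95% intervals of −0.13 to 0.32 and −0.30 to 0.15. Degs2, which makes phytoceramides, did not exceed 0.396 CPM in any GF library or 0.153 CPM in any SPF library.

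In acylceramide formation Pnpla1, the transacylase gene (ENSMUSG00000043286, chromosome 17, 28858411 to 28890309, plus strand), had the largest fold change of the members called. It was at 2.43, 1.85, 4.86 and 3.44 CPM in GF 1 to 4, and at 15.6, 4.52, 7.10 and 10.8 CPM in SPF 1, 3, 4 and 5. GF 3 overlapped with SPF 3, and the counts ranged from 28 to 76 in GF and from 66 to 153 in SPF libraries. The log2 fold change was −1.59 ± 0.40 (edgeR adjusted p = 0.0439), and the call was lost without SPF 1, SPF 4, SPF 5, GF 1, GF 2 or GF 4 (adjusted p up to 0.111) and by limma voom (adjusted p = 0.191). The antisense gene Pnpla1os shares 644 exonic bases with it, and the sources used here do not say whether reads were counted by strand. Abhd5, the co-activator of PNPLA1, averaged 57.2 ± 8.49 CPM in GF and 54.9 ± 4.55 CPM in SPF libraries. Alox12b was at 3.24, 1.85, 1.85 and 3.62 CPM in GF libraries and at 0.611, 3.63, 1.15 and 0.947 CPM in SPF libraries, and SPF 3 lay among or above the GF values. Aloxe3 averaged 2.38 ± 0.380 and 2.07 ± 0.479 CPM in GF and SPF libraries. In these libraries 1 of 11 suprabasal keratinocyte markers was called, the cornified envelope precursor gene Ivl, at 1.39 to 4.19 CPM in GF and 6.41 to 9.98 CPM in SPF libraries. That call was lost without any library other than GF 1 (adjusted p up to 0.134). Krtdap, a keratinocyte differentiation gene of the same list, was at 24.3, 17.3, 33.1 and 20.0 CPM in GF libraries and 35.6, 36.7, 40.2 and 59.8 CPM in SPF libraries, without overlap (log2 fold change −0.86 ± 0.22, edgeR adjusted p = 0.0584, DESeq2 adjusted p = 0.00325, and edgeR adjusted p = 0.0273 without GF 3 and SPF 5). Krtdap was named after its values were seen. In the same list Dsg1a, Lor and Krt13 had log2 fold changes of 0.35, 0.18 and 0.01. The other markers were below 0, from −0.08 for Krt4 to −1.37 for Ivl. The list summed to between 14476 and 23242 CPM in GF and between 16932 and 25407 CPM in SPF libraries. Most of it came from the keratin genes Krt13 and Krt4. No marker of that list was at 0 throughout either group, and their part in the Cers3 and Pnpla1 results was not tested.

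None of the genes of ceramide transport and processing was called. Abca12, the lamellar body transporter gene, was at 22.7, 21.2, 30.9 and 24.4 CPM in GF 1 to 4, against 32.2, 26.5, 26.1 and 55.6 CPM in SPF 1, 3, 4 and 5. GF 3 lay among the SPF libraries, and SPF 5 stood above the rest (log2 fold change −0.50 ± 0.24, edgeR adjusted p = 0.289; −0.31 without GF 3 and SPF 5). Ugcg, which glucosylates ceramide before export, was at 8.02, 8.12, 10.3 and 12.4 CPM in GF libraries and 7.84, 9.92, 10.8 and 14.1 CPM in SPF libraries, with groups that overlapped throughout. Smpd1, the acid sphingomyelinase gene that returns ceramide from sphingomyelin, had a log2 fold change of −0.06 with a 95% interval of −0.40 to 0.27.

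Hsdl2, whose role in these pathways is unsettled, gave the smallest p of all members. The gene (ENSMUSG00000028383, chromosome 4, 59581563 to 59618689, plus strand) was at 70.7, 52.8, 57.9 and 58.5 CPM in GF 1 to 4, and at 121, 117, 112 and 114 CPM in SPF 1, 3, 4 and 5. The groups were far apart relative to their spread. The log2 fold change was −0.95 ± 0.10 (edgeR adjusted p = 0.000191), between −1.05 and −0.90 with any 1 library left out (adjusted p 0.00031 to 0.00178), and −0.83 with the fibroblast score as covariate (adjusted p = 0.0268). Per kilobase of exon it ranked second among the 39 members in SPF libraries, at 41.5 CPM per kb, and 7 in GF libraries, at 21.5 CPM per kb.

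Some members were high in particular libraries of both groups. Of the 37 tested members, 7 were highest in GF 3 among GF libraries and also highest in SPF 5 among SPF libraries: Abca12, Cers4, Degs1, Elovl4, Elovl6, Scd1 and Sptlc3. GF 3 was the highest GF library for 12 members and SPF 5 the highest SPF library for 13, so some sharing follows from these counts alone. The other pairings of a GF with an SPF library shared between 0 and 5 such members (5 for GF 1 with SPF 1). The count was not made over all genes tested, so the 7 members shared by GF 3 and SPF 5 are a description. These 2 libraries also held the most RNA of Krt1 and of Krt79, a keratin of hair follicle and sebaceous ducts, which was at 18.3 CPM in GF 3 and 154 CPM in SPF 5 and at no more than 1.11 CPM in the other 6 libraries. The 6 sebocyte markers in the table, Krt79 among them, summed to 28.1 CPM in GF 3 and 5.00 to 11.6 CPM in the other GF libraries. In SPF 5 they summed to 164 CPM, against 6.72 to 13.0 CPM in the other SPF libraries. Krt79 made up most of the sum in GF 3 and in SPF 5. Soat1 and Awat2 were at 7.72 and 0.801 CPM in SPF 5, and at 7.94 and 4.28 CPM in SPF 4. Mc5r, Plin5 and Cidea were highest in SPF 5 among SPF libraries but did not exceed 1.09 CPM in any library. Of the 6 markers, 0 were at 0 in all libraries of a group. The part of sebocytes in these member levels was not tested. Cers3 and Hsdl2 showed no such pattern: SPF 5 lay within the range of the other SPF libraries, and GF 3 within that of the other GF libraries, for both.

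**Figure D4:**
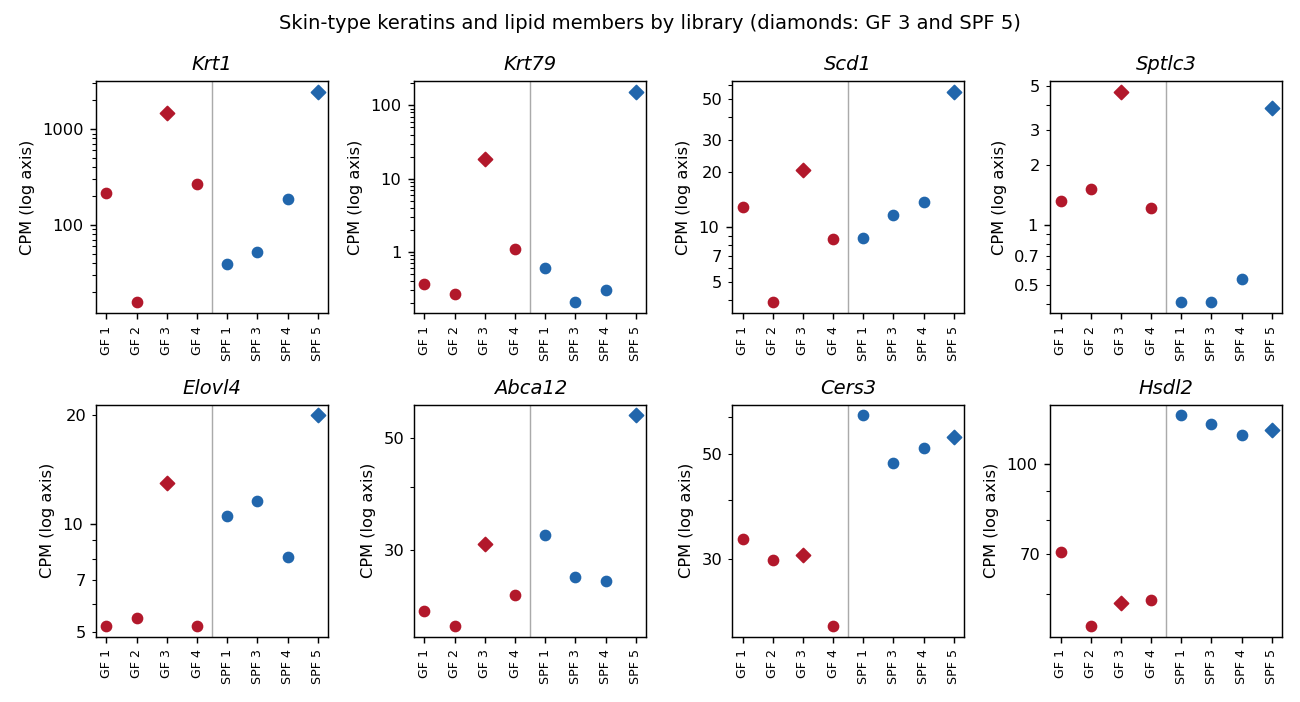
Level of 2 skin-type keratin genes and 6 members in each library, in CPM on a log axis (GF red, left; SPF blue, right; diamonds GF 3 and SPF 5). Scd1, Sptlc3, Elovl4 and Abca12 peak in the same libraries as Krt1 and Krt79, while Cers3 and Hsdl2 separate by group.

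Beyond the 39 genes, a list of 114 further lipid genes was compared in the same fit. In it 109 genes were in the table and 95 were tested, of which 4 fell (4.21%, against 2.33% of all genes tested) and 3 rose (against 1.85%) by edgeR. Their median log2 fold change was −0.12, against 0.021 over all genes tested, and 66.3% of them were below 0, against 47.1%. Those that fell were Me1, the malic enzyme gene that supplies NADPH for fatty acid synthesis, Acot1, a cytosolic acyl-CoA thioesterase gene, Slc27a3, a fatty acid transport protein gene, and Cerk, the ceramide kinase gene. Me1 was at 23.7, 22.4, 26.2 and 21.7 CPM in GF 1 to 4, against 41.1, 35.3, 27.7 and 37.2 CPM in SPF libraries (log2 fold change −0.59 ± 0.14, edgeR adjusted p = 0.0284). Acot1 was at 11.0, 7.79, 8.95 and 10.1 CPM in GF libraries, against 16.8, 17.9, 16.6 and 24.5 CPM in SPF libraries (a 2.01-fold fall, edgeR adjusted p = 0.0107). For both, all GF libraries lay below all SPF libraries, and Acot1 may share reads with its close paralog Acot2. Slc27a3 was at 12.1, 18.1, 13.0 and 13.5 CPM in GF libraries, against 23.7, 20.1, 33.8 and 36.9 CPM in SPF libraries (−1.01 ± 0.20, edgeR adjusted p = 0.0157). Cerk was at 61.5, 57.3, 58.2 and 50.7 CPM in GF libraries, against 75.5, 84.0, 75.8 and 70.2 CPM in SPF libraries (−0.42 ± 0.10, edgeR adjusted p = 0.0261). Neither gene's groups overlapped.

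Those that rose were Abca1, Lpin1 and Fabp4. Abca1, a cholesterol exporter gene, was at 54.6, 71.0, 76.1 and 64.2 CPM in GF 1 to 4, against 40.3, 46.6, 39.3 and 49.7 CPM in SPF libraries (0.60 ± 0.12, edgeR adjusted p = 0.0168). Lpin1, a phosphatidate phosphatase gene of glycerolipid synthesis, was at 22.0, 19.8, 17.3 and 20.9 CPM in GF libraries, against 14.2, 10.7, 11.1 and 11.1 CPM in SPF libraries (0.76 ± 0.16, edgeR adjusted p = 0.0205). The groups of these genes did not overlap. Fabp4, the fatty acid-binding protein of adipocytes and endothelium, was at 2.13, 3.17, 24.1 and 2.88 CPM in GF libraries. It held 1 to 6 counts per SPF library (edgeR adjusted p = 0.0416). DESeq2, limma voom and edgeR without the count filter did not call it. Of the 6 endothelial markers 5 were tested, and 2 of these were called higher, against 1.85% of all genes tested. None of the 6 was at 0 throughout a group. The 6 summed to 10.3, 31.7, 92.9 and 10.1 CPM in GF 1 to 4 and to between 2.69 and 7.10 CPM in SPF libraries. Their part in the Fabp4 result was not tested. Of these 7 calls only that of Acot1 held with any 1 library left out. The Me1 call was lost without SPF 1, SPF 3, SPF 5, GF 2 or GF 4 (adjusted p up to 0.0877) and that of Slc27a3 without SPF 4, SPF 5 or GF 4 (up to 0.0568). The Cerk call was lost without SPF 3, SPF 4, GF 3 or GF 4 (up to 0.1), that of Abca1 without SPF 4 or GF 3 (up to 0.0596), that of Lpin1 without SPF 3, SPF 4, SPF 5 or GF 4 (up to 0.0721), and that of Fabp4 without any library other than GF 1 and GF 3 (up to 0.127).

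The regulators of lipogenesis in that list gave no call by edgeR (0 of 15). Of these 15 genes, 3 had an unadjusted p under 0.05 (20.0%), close to the share of all genes tested (19.5%). Srebf1, the gene of the sterol regulatory element-binding protein that drives fatty acid synthesis, stood at 94.0 ± 8.24 CPM in GF and 94.3 ± 9.55 CPM in SPF libraries. Ppard, a nuclear receptor gene of keratinocyte lipid metabolism, averaged 56.0 ± 4.25 and 72.7 ± 9.40 CPM (log2 fold change −0.38 ± 0.11, edgeR adjusted p = 0.0723, DESeq2 adjusted p = 0.0349, limma voom adjusted p = 0.0594). The other two regulators under that unadjusted threshold had higher means in GF libraries: Ppara, a nuclear receptor gene of fatty acid oxidation, averaged 14.6 ± 2.38 and 9.58 ± 2.82 CPM (log2 fold change 0.61 ± 0.23), and Prkaa2, a catalytic chain of AMP-activated protein kinase, 34.4 ± 6.17 and 27.7 ± 1.04 CPM (0.31 ± 0.13), both with overlapping groups and called by none of the 3 tools. Nipal4, whose human counterpart is an ichthyosis gene, averaged 1.49 ± 1.26 and 5.24 ± 3.36 CPM, and Plin2, which coats lipid droplets, averaged 17.9 ± 2.96 and 27.2 ± 4.64 CPM, in GF and SPF libraries, neither of them called by edgeR (adjusted p = 0.0998 and 0.0545). DESeq2 called both (adjusted p = 0.0247 and 0.0164), and limma voom called Plin2 (adjusted p = 0.0272) and not Nipal4 (adjusted p = 0.155). In the authors' deposited table Ppard, Nipal4 and Plin2 were higher in SPF, with adjusted p-values of 0.0482, 0.0344 and 0.023. Srebf1, Ppard, Ppara, Prkaa2, Nipal4 and Plin2 were named after their values were seen.

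**Figure D5:**
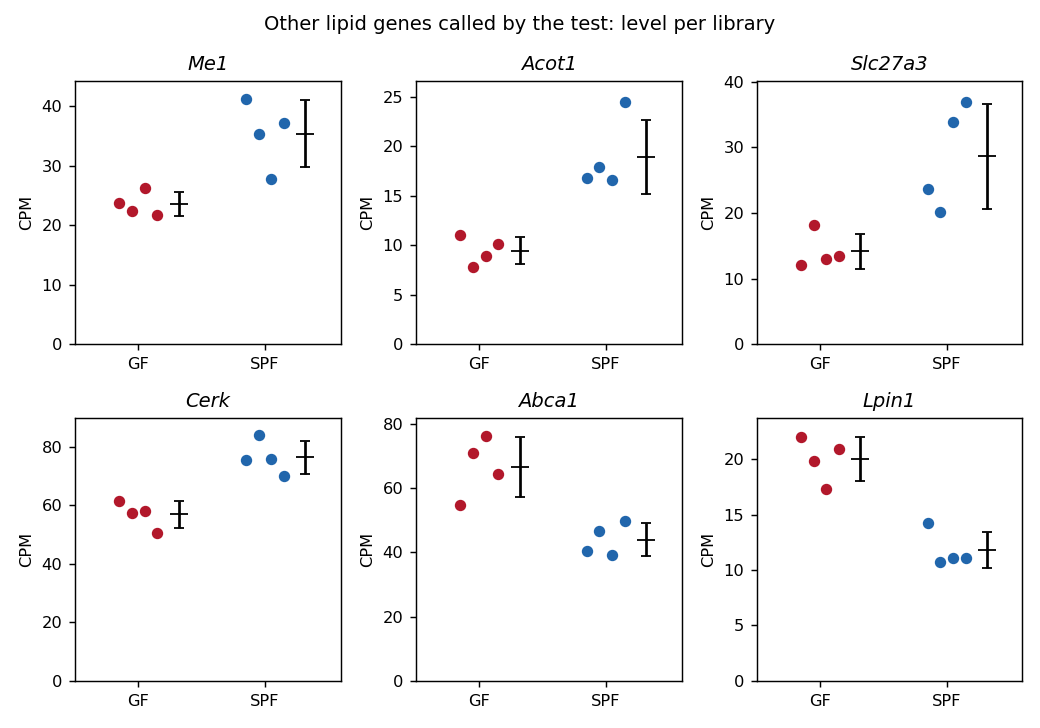
Level of 6 further lipid genes called by edgeR, in CPM on a linear axis from 0 (GF red, SPF blue, bars mean ± SD, n = 4). Fabp4, also called by edgeR, is not shown. Me1, Acot1, Slc27a3 and Cerk lie lower, and Abca1 and Lpin1 higher, in all GF libraries than in any SPF library.

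In the authors' deposited table, whose fold changes are SPF over GF, 7 members were higher in SPF at an adjusted p under 0.05 (2.63% of its genes with an adjusted p were) and 0 were higher in GF (2.59% of its genes). The 7 were the 6 genes above and Sptlc2, for which the authors' deposited table gave an adjusted p of 0.0452.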

How the data were processed

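Counts, log2 fold changes and p-values came from 1 deposited table of 8 libraries (4 GF, 4 SPF). The deposited counts were raw whole numbers per gene from a stranded total RNA kit with ribosomal RNA depletion, per the labels' protocols. The submitters' processing notes name the genome build GRCm38 and, without saying what each did, DESeq2 1.22.2, HTSeq 0.6.0, the aligner TopHat2 2.1.1, the trimmer cutadapt 1.18, and bcl2fastq 2.18.0.12. The authors' normalized signal columns were, per the file headers, DESeq2-normalized counts, and the baseMean column held their mean. The authors' log2 fold changes with standard errors, the Wald score and the p-values were those of SPF over GF, per the file headers.

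Genes were kept by filterByExpr (minimum count 10, minimum total 15), scaled by TMM and tested by edgeR 4.0.16 (glmQLFit robust, glmQLFTest, two-sided, group as the only term; R 4.3.3), with Benjamini-Hochberg adjustment over 15098 genes. SEs came from the F statistic, and fold changes used a prior count of 0.125. Exon lengths were unions of GENCODE M21 exons, and 99.0% of genes shared start and end with that annotation. Floors of 3 counts cover counting error only. The procedure was tested on simulated data. Alternatives were other scalings, DESeq2 1.42.0, limma 3.58.1 voom, other filters, a replicate block, a fibroblast score (mean log2 CPM, prior count 1) and libraries left out. Members and lists were chosen with earlier results of these data known. By rule, values per library are given for called members and the 2 with the smallest p in each role, and the other lipid genes named are those called and the 6 with the smallest p. Sptlc3 was added after its values were seen. Marker lists not cited in the results summed, in GF and SPF libraries, to 597 to 762 and 637 to 852 CPM (epithelial), 7.50 to 19.5 and 9.06 to 13.7 (adipocyte), 6.55 to 23.3 and 4.07 to 9.09 (leukocyte), 0.959 to 4.27 and 2.11 to 6.49 (Langerhans cell), 0.662 to 4.49 and 1.37 to 3.50 (melanocyte) and 1.32 to 13.0 and 0.611 to 2.87 CPM (skeletal muscle).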

Additional observations from a re-analysis of the deposited data

Results flagged for a closer look

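In groups of 4 libraries, a library was singled out when its gap to the nearest of the others was too large a part of the group's range by Dixon's test at the 95% level. This was applied to 130 groups, of which chance picks about 1 in 20, and it picked 13. Among members, Scd1 was at 54.9 CPM in SPF 5 against 8.75 to 13.8 CPM in the other SPF libraries. Elovl4 was at 13.0 CPM in GF 3 against 5.20 to 5.48 CPM. Sptlc3 was at 4.67 CPM in GF 3 against 1.21 to 1.52 CPM, and at 3.86 CPM in SPF 5 against 0.407 to 0.535 CPM. Among the other lipid genes, Fabp4 was at 24.1 CPM in GF 3, Acot1 at 24.5 CPM in SPF 5 and Lpin1 at 14.2 CPM in SPF 1. Among marker sums, fibroblast markers were at 687 CPM in GF 3 and sebocyte markers at 164 CPM in SPF 5, of which 154 CPM were Krt79. Salivary acinar markers were at 232 CPM in GF 4 and 27.1 CPM in SPF 4. Langerhans cell markers were at 4.27 CPM in GF 1 and basal keratinocyte markers at 29788 CPM in SPF 4.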

How the results depend on the processing

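The number of all genes called was 631, and 1352 by DESeq2, 975 by limma voom, 333 with the replicate block, 35 with the fibroblast score and 179 without GF 3 and SPF 5. It was 284 to 688 with 1 library left out (284, 301 and 318 without SPF 3, SPF 4 and SPF 5, 379 and 286 without GF 3 and GF 4). The 6 members called lower became 3 with the replicate block, 1 with the fibroblast score and 2 without GF 3 and SPF 5, and 2 to 5 with 1 library left out (3 without SPF 4 or GF 2, 2 without GF 4). No alternative called a member higher. The 4 other lipid genes called lower became 8 by DESeq2, 1 with the replicate block, 0 with the fibroblast score and 0 without GF 3 and SPF 5, and 1 to 4 with 1 library left out (2 without SPF 3, SPF 4 or SPF 5, 1 without GF 4). The 3 called higher became 1, 0 and 0 under the last 3 of these settings, and 0 to 4 with 1 library left out (1 without SPF 3, SPF 5 or GF 4, 0 without SPF 4). The cause of these moves was not tested. Correlations of deviations between same-numbered libraries were 0.168, −0.0445 and −0.0466 for numbers 1, 3 and 4. They exceeded 0.1 for number 1 alone, and the fit without the block was kept. Between libraries of unlike numbers the correlations ran from −0.168 (GF 3 with SPF 1) to 0.146 (GF 3 with SPF 5). With the replicate block the Fabp5, Acsl5 and Pnpla1 calls were lost. Only numbers 1, 3 and 4 occur in both groups, so with the block GF 2 and SPF 5 added nothing to the group estimate. The log2 fold change of Scd1 reversed to 0.25 with the replicate block and 0.01 without SPF 5 (−1.40 to 0.01 with 1 library left out), and that of Ugcg to 0.09 and 0.02 (−0.28 to 0.02). Neither was called. RLE and upper-quartile scaling and both other filters left the 6 member calls in place. Members at a few CPM, such as Sptlc3, Alox12b, Aloxe3 and Pnpla1, are limited by their counts.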
